A study of Mus musculus with 19 samples.

Results

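The 10 genes described here are Atf4, which encodes activating transcription factor 4, and 9 genes named as its targets: Atf5, Ddit3, Asns, Trib3, Chac1, Psat1, Phgdh, Mthfd2 and Sesn2. They were taken by symbol from the deposited table, and all 10 had a row among its 35976 rows. RNA was sequenced from the livers of 19 mice in 3 groups. There were 7 WT, 6 Het and 6 Homo mice at Pkd1, the gene of polycystin-1, a membrane protein mutated in polycystic kidney disease. Every group, WT included, carried AAV-Cre, a viral vector with the recombinase Cre. Every mouse was also given a Western diet with carbon tetrachloride (CCl4) for 3 months, a fat-rich diet combined with a liver toxin that models steatohepatitis. The design text calls the mice littermates. Strain, age, sex, the promoter that drives Cre and the deleted part of Pkd1 are not given in the labels used here. Each sample title ends in a number from 1 to 20, called the mouse number here. What that number counts is unknown from the labels.

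When cells lack amino acids, or when unfolded protein builds up in the endoplasmic reticulum, stress kinases phosphorylate the initiation factor eIF2. General translation falls, while the Atf4 mRNA is translated more, because short upstream reading frames control it. ATF4 protein then binds C/EBP-ATF response elements together with C/EBP proteins and raises genes of amino acid synthesis, amino acid uptake, tRNA charging and stress. In liver the same programme responds to the supply of dietary protein and to the secretory load of hepatocytes. The level of Atf4 mRNA therefore does not measure the level or activity of ATF4 protein, and no protein was measured here.

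Promoters are shown because the response element is the sequence through which ATF4 is known to act. RefSeq promoter windows (GRCm38.p6, 250 bases before to 50 after each annotated start) were found for all 10 genes, 12 windows in all. The letters TGATGNAA, the core of the C/EBP-ATF response element, were searched on both strands. They occurred in 3 of the 12 windows, against 3.97% of all 32851 RefSeq windows. The matches lay 23 bases before the start of Asns, 14 bases after that of Trib3 and 193 bases before that of Chac1. The endoplasmic reticulum stress element ERSE, searched the same way, occurred in 0 of the 12 windows and in 0.119% of all. The 3 windows with a match are printed 5′ to 3′ up to 30 bases after the start, with the match in capitals. A window of Atf5, the gene that was called for the mouse number below, follows and holds no match.
Asns promoter (chr6:7693180-7693459, minus strand): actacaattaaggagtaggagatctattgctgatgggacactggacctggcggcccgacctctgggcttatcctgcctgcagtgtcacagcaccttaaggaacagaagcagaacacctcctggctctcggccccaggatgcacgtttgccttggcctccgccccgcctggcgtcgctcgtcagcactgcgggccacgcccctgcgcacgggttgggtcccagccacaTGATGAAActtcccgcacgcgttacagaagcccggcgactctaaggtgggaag
Trib3 promoter (chr2:152344031-152344310, minus strand): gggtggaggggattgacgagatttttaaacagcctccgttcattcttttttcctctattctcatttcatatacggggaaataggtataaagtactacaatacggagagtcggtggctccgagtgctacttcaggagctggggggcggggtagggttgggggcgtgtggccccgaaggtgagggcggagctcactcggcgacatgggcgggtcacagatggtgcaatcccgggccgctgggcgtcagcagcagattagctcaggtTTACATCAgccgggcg
Chac1 promoter (chr2:119350992-119351271, plus strand): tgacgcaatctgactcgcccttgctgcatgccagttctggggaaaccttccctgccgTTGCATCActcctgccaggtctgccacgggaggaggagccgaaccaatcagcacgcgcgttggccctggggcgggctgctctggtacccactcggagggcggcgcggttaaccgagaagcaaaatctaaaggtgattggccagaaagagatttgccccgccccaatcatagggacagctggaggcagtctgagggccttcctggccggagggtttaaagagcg
Atf5 promoter (chr7:44816629-44816908, minus strand): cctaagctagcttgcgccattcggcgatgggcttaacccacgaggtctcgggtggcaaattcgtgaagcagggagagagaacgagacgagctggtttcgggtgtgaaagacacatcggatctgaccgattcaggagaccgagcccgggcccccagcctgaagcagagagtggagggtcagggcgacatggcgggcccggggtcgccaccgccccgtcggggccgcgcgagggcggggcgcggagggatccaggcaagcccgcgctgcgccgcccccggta

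Library totals lay between 25.8 and 42.1 M counts, and between 34.6 and 39.9 M in mice 1 to 3. The hepatocyte marker Alb was at 7900 CPM (counts per M library counts, after TMM scaling) or more in each library, so the labelled tissue was present. Pkd1 was at 328 to 452 CPM in WT, 340 to 445 in Het and 334 to 380 in Homo, and it passed in none of the 3 comparisons (Homo against WT, log2 fold change -0.18 ± 0.08 SE, adjusted p = 0.315). Counts over the whole gene do not check a partial deletion or cells that Cre did not reach. Of 8 listed bile duct markers 7 were tested. As higher in Homo, 4 of 7 passed against WT and 5 of 7 against Het, where 0.480% and 0.182% of all tested genes were called. Against WT 6 of the 7 estimates lay above 0 and 1 below, and against Het all 7 lay above. In these bulk samples, fewer cells of a type and less RNA per cell cannot be told apart.

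Per exonic length, the 3 transcription factors had the highest levels. Mean RPKM (CPM per kilobase of exon, n = 19) was 65.6 ± 24.0 (SD) for Atf5, 15.7 ± 1.92 for Atf4 and 4.01 ± 1.34 for Ddit3. The ranges of these 3 genes did not overlap, and Atf5 lay above Atf4 and Atf4 above Ddit3 in 19 of 19 livers. Chac1 (1.20 ± 0.54), Trib3 (0.77 ± 0.35) and Sesn2 (0.72 ± 0.23) came next, and their ranges overlapped: Trib3 exceeded Sesn2 in 12 of 19 livers. The biosynthetic enzymes had the lowest levels. Mthfd2 was at 0.35 ± 0.17, Asns at 0.33 ± 0.23 and Psat1 at 0.17 ± 0.10. Mthfd2 exceeded Asns in 12 of 19 livers and Asns exceeded Psat1 in 14. Phgdh stood last, at 0.07 ± 0.05, below Psat1 in 15 of 19.

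**Figure D1:**
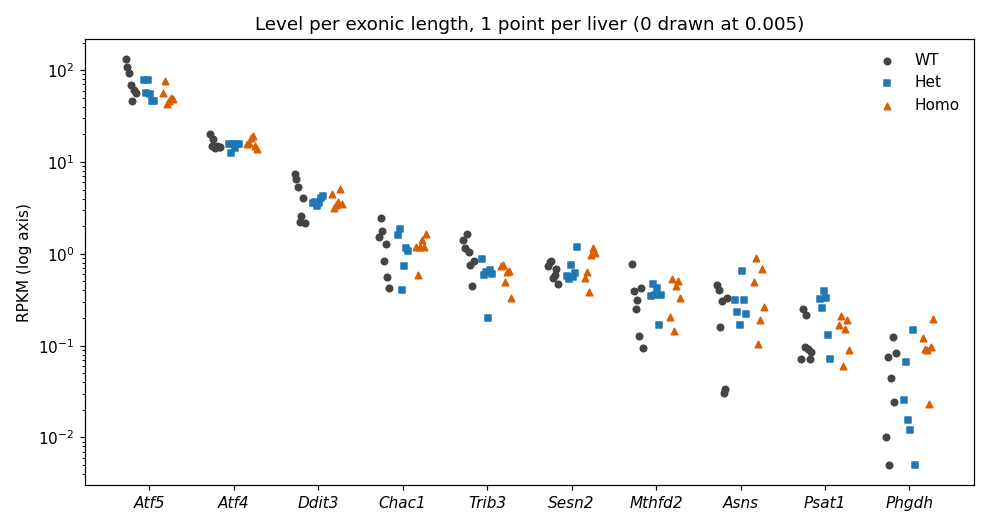
Level per exonic length (RPKM, log axis) of the 10 genes in each liver, ordered by mean. Points are livers, coloured by genotype, and livers at 0 sit at the bottom of the Phgdh column. The ranges of Atf5, Atf4 and Ddit3 do not overlap each other, while from Ddit3 downward the ranges of neighbours overlap.

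Atf4 was the steadiest of the 10. Its coefficient of variation over the 19 livers was 12.2%, against 2.79% from counting alone at its mean of 1290 counts. That of Asns was 69.0%, against 17.8% from counting alone at 31.7 counts. For the other genes tested it lay from 32.3% for Sesn2 to 59.1% for Psat1.

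The genotype comparisons ask whether these genes depend on mutant Pkd1 alleles, both of them in Homo and a single allele in Het. None of the 9 tested genes passed in any of the 3 comparisons (edgeR's quasi-likelihood test with Benjamini-Hochberg adjustment over all 16463 tested genes, two-sided, threshold 0.05). Phgdh did not pass the filter on low counts and was not tested. Over all tested genes, 0.480% were called in Homo against WT (0.292% higher, 0.188% lower), 0.0243% in Het against WT (0.0182% higher, 0.00607% lower) and 0.182% in Homo against Het (0.146% higher, 0.0364% lower), so a count of 0 among 9 is near the background. DESeq2 and limma-voom with quality weights also called 0 of the 9 in each comparison. At an unadjusted p under 0.05 there were 2 of 9 in Homo against WT (12.9% of all tested genes), 2 in Het against WT (8.84%) and 0 in Homo against Het (6.29%). Median log2 fold changes of the 9 were 0.03, -0.09 and 0.04, against 0.00191, -0.00428 and -0.00117 over all tested genes. Homo and Het are compared with the same WT livers, so the first comparisons are not independent of each other.

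**Figure D2:**
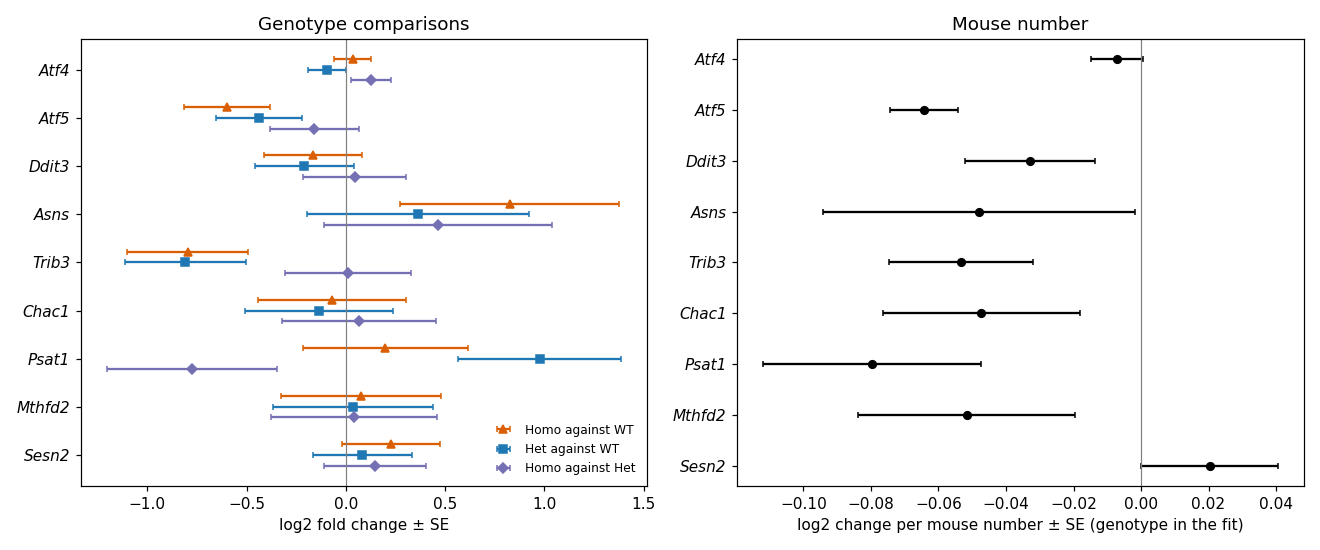
Left, log2 fold change ± SE of the 9 tested genes in the 3 genotype comparisons. Right, log2 change per mouse number ± SE with genotype in the fit. No genotype estimate passed the threshold, and on the right Atf5 is the gene that passed.

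Atf4 itself was at 33.2 to 47.8 CPM in WT (median 35.3), 29.3 to 37.6 in Het (median 37.0) and 32.5 to 44.7 in Homo (median 37.5). The ranges of the 3 groups overlapped. Homo against WT was at 0.03 ± 0.09 on the log2 scale (SE; 95% interval -0.164 to 0.232; adjusted p = 0.917). Of the 9 genes this interval was the narrowest.

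Atf5 encodes a relative of ATF4 that is also controlled through upstream reading frames and is abundant in hepatocytes. It was at 91.6 to 263 CPM in WT (median 138), 91.2 to 155 in Het (median 112) and 85.4 to 152 in Homo (median 97.9). WT livers held the highest values, but the lowest WT liver, mouse 11 at 91.6 CPM, lay inside the range of both other groups. The difference was -0.60 ± 0.22 for Homo against WT (adjusted p = 0.248) and -0.44 ± 0.22 for Het against WT (adjusted p = 0.574). Both estimates were -0.11 with mouse number as a covariate. Within mice 8 to 13 Homo against WT was at 0.18. That subset, used again below, holds only Homo mice 8 and 10 and WT mice 9, 11, 12 and 13. Without mice 1 to 3 Homo against WT was at -0.13 and Het against WT at 0.03. Atf5 shares 82 exonic bases, 4.1% of its length, with Nup62 and Il4i1 on the other strand, and the strand setting of the counting is not stated.

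Ddit3 encodes CHOP, a transcription factor induced by ATF4 that is linked to cell death under prolonged stress. It was at 3.68 to 12.7 CPM in WT (median 6.95), 5.66 to 7.32 in Het (median 6.26) and 5.44 to 8.68 in Homo (median 6.10). WT held both the highest and the lowest livers, and every Het and Homo liver lay between them. Homo against WT was at -0.16 ± 0.25 (adjusted p = 0.832), and without mice 1 to 3 the estimate was 0.49 (adjusted p = 0.436), with the opposite sign. A stretch of 68 exonic bases of Ddit3, 4.0% of its length, also lies in Mars, on the other strand.

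Trib3 encodes a pseudokinase that restrains ATF4 and insulin signalling. It was at 0.949 to 3.49 CPM in WT (median 2.22), 0.420 to 1.86 in Het (median 1.32) and 0.694 to 1.62 in Homo (median 1.38). The groups overlapped, though 4 WT livers (mice 1, 2, 3 and 9) stood above all Het and Homo livers. Homo against WT was at -0.80 ± 0.30 (95% interval -1.43 to -0.163; unadjusted p = 0.0164; adjusted p = 0.276), Het against WT at -0.81 ± 0.305 (adjusted p = 0.490) and Homo against Het at 0.01 ± 0.32 (adjusted p = 0.999). Homo against WT was at -0.37 without mice 1 to 3 (adjusted p = 0.840), at -0.41 with the mouse number in the fit (adjusted p = 0.826) and at -0.05 within mice 8 to 13 (adjusted p = 0.994). Het against WT was at -0.37 without mice 1 to 3 (adjusted p = 0.919) and at -0.52 with the number in the fit (adjusted p = 0.759).

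Chac1 encodes a glutathione-degrading enzyme, and its level was scattered within each group. It was at 0.688 to 3.98 CPM in WT (median 2.11), 0.659 to 3.08 in Het (median 1.84) and 0.963 to 2.68 in Homo (median 1.96). The WT range held the whole Homo range. Homo against WT was at -0.07 ± 0.37 (95% interval -0.844 to 0.707; adjusted p = 0.961), and without mice 1 to 3 the estimate was 0.62, with the opposite sign.

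Sesn2 encodes a leucine sensor that inhibits mTORC1, the kinase complex of growth, and it also responds to p53. It was at 1.61 to 2.93 CPM in WT (median 2.39), 1.86 to 4.18 in Het (median 2.07) and 1.33 to 4.01 in Homo (median 2.77). Homo mice 16, 17 and 18, at 3.36, 4.01 and 3.57 CPM, and Het mouse 20, at 4.18, lay above every WT liver, while Homo mouse 15 was the lowest of all at 1.33. The estimate for Homo against WT was 0.23 ± 0.25 (adjusted p = 0.747). It was 0.45 without mice 1 to 3 (adjusted p = 0.750), 0.06 with the number in the fit (adjusted p = 0.989) and 0.02 within mice 8 to 13 (adjusted p = 0.997). Of 10 tested p53 target genes, 0 passed in this comparison, with a median of 0.05.

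Asns encodes asparagine synthetase, and its counts were low, from 3 to 87 reads per liver. It was at 0.0834 to 1.26 CPM in WT (median 0.834), 0.465 to 1.77 in Het (median 0.741) and 0.284 to 2.47 in Homo (median 1.03). WT mice 11 and 12, with 3 reads each, were the lowest, and Homo mouse 10, with 87, was the highest. In Homo against WT it was at 0.83 ± 0.55 on the log2 scale (95% interval -0.327 to 1.98; adjusted p = 0.548). The estimate was 1.32 without mice 1 to 3 (adjusted p = 0.640), 1.17 with the number in the fit (adjusted p = 0.701) and 1.98 within mice 8 to 13 (adjusted p = 0.770). Mice 8 to 13 hold only Homo mice 8 and 10 and WT mice 9, 11, 12 and 13. Both the highest liver and the lowest livers named above are among them.

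Psat1 and Phgdh encode enzymes of serine synthesis from glycolysis. Psat1 was at 0.302 to 1.07 CPM in WT (median 0.389), 0.304 to 1.67 in Het (median 1.22) and 0.253 to 0.907 in Homo (median 0.676). Het mice 4, 6, 7 and 14, from 1.09 to 1.67 CPM, lay above every WT and Homo liver, and Het mice 19 and 20 lay within the WT range. Het against WT was at 0.98 ± 0.41 (unadjusted p = 0.0283; adjusted p = 0.525), Homo against Het at -0.78 ± 0.43 (adjusted p = 0.843) and Homo against WT at 0.20 ± 0.42 (adjusted p = 0.888). The last was at 0.74 with the number in the fit (adjusted p = 0.732) and at 0.70 within mice 8 to 13 (adjusted p = 0.883).

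Phgdh held 0 to 11 reads per liver in WT, 0 to 13 in Het and 2 to 20 in Homo. At most 20 reads in any liver make it the lowest gene of the 10, with medians of 0.111, 0.0509 and 0.234 CPM. It was at 0 in WT mouse 3 and Het mouse 20, where a count of 0 allows up to 0.088 and 0.076 CPM (3 counts, counting error only). GENCODE vM21 annotates 7 copies of Phgdh elsewhere in the genome at 95% identity or more over at least 1000 bases. None of these 7 has a row in the table. How multi-mapping reads were counted is not stated, so the level of Phgdh is uncertain.

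Mthfd2 encodes a mitochondrial folate enzyme that supplies formate for nucleotide synthesis. It was at 0.329 to 2.72 CPM in WT (median 1.08), 0.589 to 1.62 in Het (median 1.24) and 0.505 to 1.84 in Homo (median 1.36). WT again held both extremes, mouse 1 at 2.72 and mouse 13 at 0.329. For Homo against WT the estimate was 0.08 ± 0.40 (95% interval -0.763 to 0.915; adjusted p = 0.960). It was 0.58 without mice 1 to 3 (adjusted p = 0.790), 0.52 with the number in the fit (adjusted p = 0.869) and 0.60 within mice 8 to 13 (adjusted p = 0.917).

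Other genes of the pathway were not called between genotypes either. Of 13 genes of eIF2, its kinases, phosphatase and exchange factor, 0 passed in each of the 3 comparisons, with a median of 0.00054 in Homo against WT. Eif2ak2, the eIF2 kinase PKR, was at 0.16 ± 0.07 (adjusted p = 0.310), Eif2s1, the eIF2 subunit that is phosphorylated, at -0.18 ± 0.08 (adjusted p = 0.327) and Eif2ak3, which encodes PERK, the eIF2 kinase of the endoplasmic reticulum, at -0.44 ± 0.21 (adjusted p = 0.392). WT mice 1 to 3 held Eif2ak3 at 26.1 to 33.7 CPM, and the other 16 livers at 10.6 to 22.2. Its mean was 15.2 CPM in WT mice 9 to 13 and 15.5 in Homo. Of 8 partner and downstream leucine zipper factors, 0 passed (median 0.07). Cebpg, a dimer partner of ATF4, was at 0.14 ± 0.06 (adjusted p = 0.321).

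Of 23 other ATF4 target genes, 0 passed in each comparison, with a median of 0.04 in Homo against WT, where 12 estimates lay above 0 and 11 below. Cth was at -0.29 ± 0.10 (adjusted p = 0.207) and Herpud1 at -0.40 ± 0.22 (adjusted p = 0.452). Mean CPM of Cth was 90.4 in WT mice 1 to 3 and 72.0 in the other 16 livers, and that of Herpud1 369 and 208. Mthfd1l, the mitochondrial formate synthetase, was at 1.12 ± 0.32 (adjusted p = 0.132), with mean levels of 3.70 ± 2.03 CPM in the 7 WT livers, 6.81 ± 1.63 in the 6 Het livers and 7.99 ± 2.71 in the 6 Homo livers (± SD). It was the lowest in WT mice 1 to 3, at 1.38 to 2.05 CPM, and the other 16 livers lay from 3.20 to 11.5. Of 11 amino acid transporters 0 passed (median -0.06) and of 20 aminoacyl-tRNA synthetases 0 (median -0.07). Of 17 enzymes of serine, glycine and folate metabolism 0 passed (median -0.14). Among these enzymes Sdsl, a serine dehydratase-like enzyme, was at -0.60 ± 0.16 (adjusted p = 0.115) and Aldh1l1, a cytosolic folate dehydrogenase, at -0.34 ± 0.10 (adjusted p = 0.149). Of 15 tested genes of the sestrins and amino acid sensing by mTORC1 0 passed (median -0.04), and 2 of that list's 17 symbols had no row. Of 14 chaperones and other targets of the ATF6 and IRE1 branches of the unfolded protein response 0 passed, while all 14 estimates lay below 0 (median -0.34). Their summed CPM was 1870 to 2340 in WT mice 1 to 3, against 1170 to 1900 in the other 16 livers and 1170 to 1480 in Homo. Mean CPM in WT mice 1 to 3, WT mice 9 to 13 and Homo was 51.4, 20.5 and 21.7 for Dnajb9. In the same order it was 28.5, 13.3 and 11.8 for Manf and 75.5, 53.5 and 49.8 for Pdia6. Estimates without mice 1 to 3 are not given for this list. The lists overlap, and Mthfd1l stands in more than 1.

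Because many genes in these livers follow the mouse number, each gene was also fitted against that number with genotype in the model. In this fit 6.40% of the 16463 tested genes were called, 3.17% higher and 3.23% lower with a higher number. Of the 9 genes, 1 was called (Atf5, lower), and 8 of 9 slopes lay below 0, with a median of -0.05 per number against -0.000262 over all tested genes. At an unadjusted p under 0.05 there were 3 of 9, against 20.3% of all tested genes.

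Atf5 fell by 0.06 on the log2 scale per number (SE 0.01, adjusted p = 0.00115), or by 0.64 over 10 numbers. WT mice 1, 2 and 3 were at 263, 215 and 187 CPM, and WT mice 9, 11, 12 and 13 at 138, 91.6, 122 and 113. Het mice 4, 6 and 7 were at 155, 114 and 154 CPM, and Het mice 14, 19 and 20 at 109, 91.4 and 91.2. Homo mice 8 and 10 were at 114 and 152 CPM, and Homo mice 15 to 18 at 85.4 to 98.2. In each genotype the lower-numbered livers given here lay above all of the higher-numbered ones. The slope was fitted to these same livers, so this is no separate test. In WT, 8.78% of all tested genes had mice 1 to 3 above mice 9 to 13. For the Het and Homo splits that share was not counted. The slope was called in each of the 19 fits that left out a single liver, and without mice 1 to 3 it was -0.05 (adjusted p = 0.032).

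The other slopes were not called, and DESeq2 gave no adjusted p for those of Asns and Psat1. Psat1 was at -0.08 ± 0.03 per number (adjusted p = 0.160), Trib3 at -0.05 ± 0.02 (adjusted p = 0.156) and Ddit3 at -0.03 ± 0.02 (adjusted p = 0.367). Atf4 was at -0.00709 ± 0.00768 (adjusted p = 0.677). Sesn2 was the gene above 0, at 0.02 ± 0.02 (adjusted p = 0.641), with its highest livers among mice 16 to 20.

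**Figure D3:**
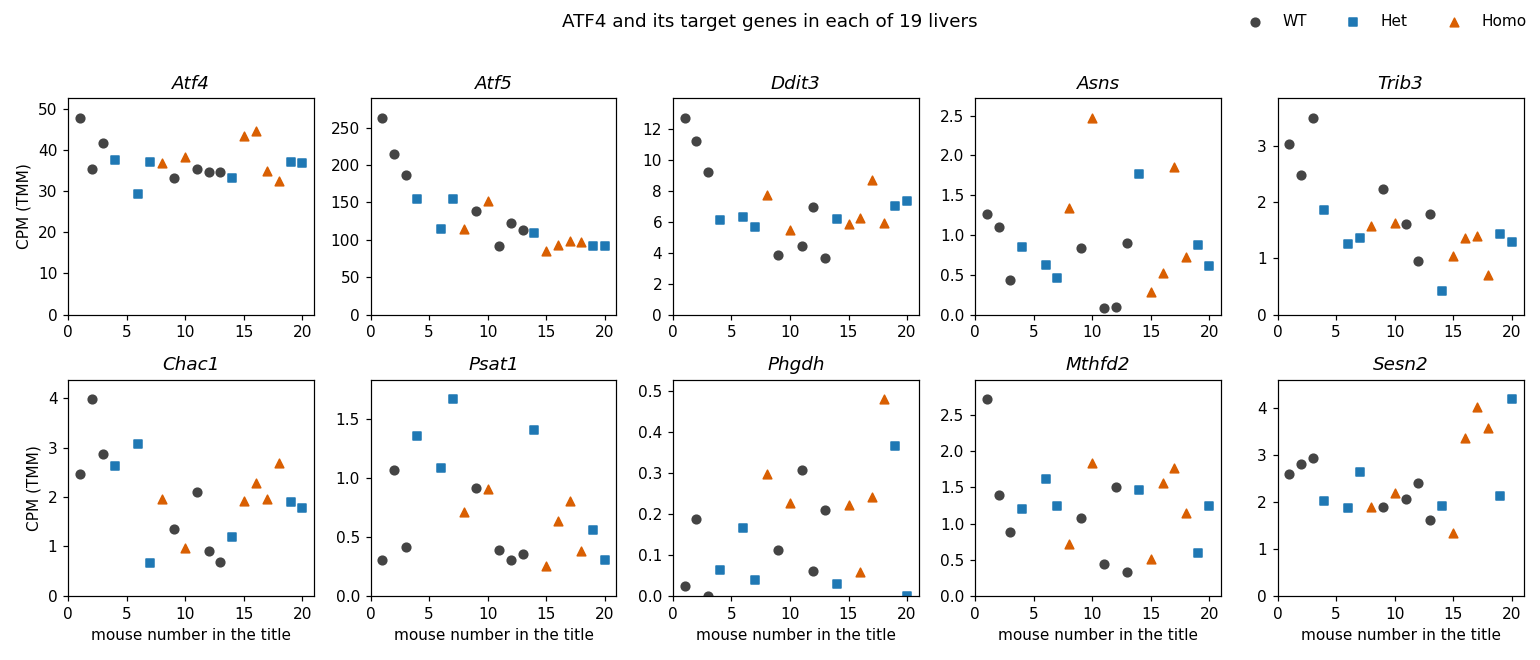
CPM of the 10 genes in each of the 19 livers, plotted against the mouse number of the sample title and marked by genotype. Atf5, Ddit3 and Trib3 are highest in WT mice 1 to 3, at 187 to 263, 9.24 to 12.7 and 2.48 to 3.49 CPM, above all 16 other livers.

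WT mice 1 to 3 stood out for several of the genes. Ddit3 was at 12.7, 11.2 and 9.24 CPM in them and at 3.68 to 8.68 in the other 16 livers. Trib3 was at 3.02, 2.48 and 3.49 CPM in them and at 0.420 to 2.22 in the others. Of the 9 tested genes, 3 (Atf5, Ddit3 and Trib3) had all of mice 1 to 3 above all other livers, against 2.00% of all tested genes. Set only against WT mice 9 to 13, 5 of 9 did so, with Chac1 and Sesn2 added, against 8.78%. None lay below (1.96% and 8.78% of tested genes did). Atf4 overlapped, with mouse 2 at 35.3 and mouse 11 at 35.4 CPM. These counts describe 3 livers that share a genotype and low numbers, and carry no test.

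Summed markers of liver cell types overlapped between mice 1 to 3 and the other livers. Summed CPM of 7 stellate cell markers was 64.3 to 118 in mice 1 to 3 and 60.7 to 123 in the others, that of 6 macrophage markers 168 to 212 and 149 to 220, and that of 8 bile duct markers 75.4 to 160 and 58.7 to 170. That of 8 hepatocyte markers was 25600 to 28500 in mice 1 to 3 and 23400 to 30200 in the others. A sum follows its most abundant markers, so overlap does not show a like share of each cell type. The bile duct sum also overlapped between WT (58.7 to 160) and Homo (124 to 170), where 4 of 7 tested markers passed. No tested bile duct, macrophage, stellate, endothelial, T and NK, B cell or proliferation marker was called for the mouse number. Tested were 7 of 8 bile duct, 2 of 5 T and NK, 3 of 4 B cell and 5 of 6 proliferation markers, and all of the other lists. Of the hepatocyte markers Ttr was called, at -0.03 ± 0.01 per number (adjusted p = 0.0113).

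In the neighbouring pathways the counts were as follows, beside 3.23% of all tested genes called lower with a higher number. Of the 14 ATF6 and IRE1 branch genes, 11 were called, all lower with a higher number, and all 14 slopes lay below 0 (median -0.04). Hspa5, the chaperone BiP, was at -0.07 ± 0.01 (adjusted p = 0.000356), with 344 to 480 CPM in mice 1 to 3 and 149 to 372 in the others. Of the 20 aminoacyl-tRNA synthetases, which charge tRNAs, 4 were called lower and 19 slopes lay below 0 (median -0.02). Nars was at -0.03 ± 0.00448 (adjusted p = 0.000586), Tars at -0.05 ± 0.01 (adjusted p = 0.0278), Iars at -0.02 ± 0.00502 (adjusted p = 0.0313) and Aars at -0.02 ± 0.00525 (adjusted p = 0.0330). Tars was at 53.7 to 72.5 CPM in mice 1 to 3 and at 26.9 to 46.2 in the others.

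In the next 3 lists the share called was near the 6.40% called over all tested genes. Of the 23 other ATF4 target genes, 1 was called, Gpt2, an alanine aminotransferase, and it was higher with a higher number (0.03 ± 0.00669, adjusted p = 0.0159). Most slopes of that list went the other way, 16 below 0 and 7 above (median -0.00967). Of the 17 enzymes of serine, glycine and folate metabolism, Cbs, which makes cystathionine from serine, was called lower (-0.05 ± 0.01, adjusted p = 0.0160). Of the 13 eIF2 genes, Ppp1r15b, a constitutive regulatory subunit of the eIF2 phosphatase, was called higher (0.02 ± 0.00475, adjusted p = 0.0117). Of the 15 sestrin and mTORC1 genes, Lamtor1 (-0.04 ± 0.00699, adjusted p = 0.00223) and Tsc1 (-0.02 ± 0.00424, adjusted p = 0.00338) were called lower. Of the 11 amino acid transporters, the 8 partner and downstream factors and the 10 p53 target genes, 0 were called. Whether the mouse number stands for age, handling, harvest or anything else was not tested.

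Whether the 9 genes moved together from mouse to mouse was described by pairs. Of the 36 pairs, 29 correlated positively, with a median Pearson's r of 0.23 over 19 livers (log2 CPM) and a range from -0.37 to 0.65. For deviations from genotype and mouse number the median was 0.176. How often pairs of other tested genes correlate positively was not counted. With 100000 permutations and Benjamini-Hochberg adjustment over the 36 pairs, 0 pairs passed by Pearson's r or by Spearman's rho. The highest pair was Atf5 with Trib3 (r = 0.65, permutation p = 0.00279, adjusted p = 0.100; rho = 0.61, permutation p = 0.00591, adjusted p = 0.213). It fell to 0.51 without WT mice 1 and 2, and to 0.18 for deviations from genotype and mouse number. Ddit3 with Chac1 followed (r = 0.56, permutation p = 0.0133, adjusted p = 0.210; rho = 0.51, permutation p = 0.0283, adjusted p = 0.492), with 0.45 without mice 1 and 2 and 0.50 for the deviations. Ddit3 with Mthfd2 was at r = 0.54 (permutation p = 0.0176, adjusted p = 0.210; rho = 0.41, permutation p = 0.0838, adjusted p = 0.492), with 0.40 without mice 1 and 2 and 0.48 for the deviations. Mthfd2 with Sesn2 was at r = 0.50 (permutation p = 0.0277, adjusted p = 0.210; rho = 0.42, permutation p = 0.0701, adjusted p = 0.492), with 0.42 without WT mice 11 and 13 and 0.63 for the deviations. Atf5 with Ddit3 (r = 0.50, permutation p = 0.0292, adjusted p = 0.210; rho = 0.25, permutation p = 0.295, adjusted p = 0.756) was at 0.03 without WT mice 1 and 2, on which the relation of log2 CPM rests, and at 0.49 for the deviations over all 19 livers.

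**Figure D4:**
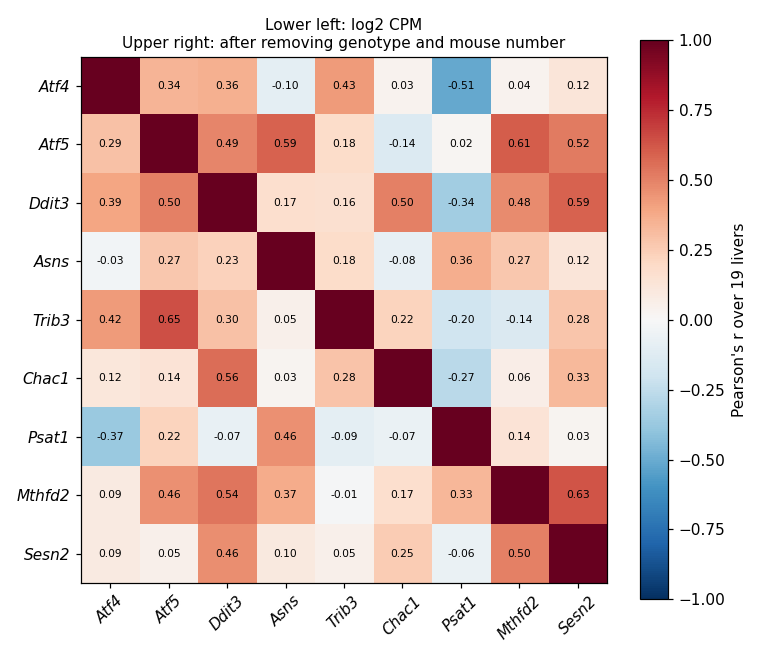
Pearson's r of each pair of the 9 tested genes over 19 livers, for log2 CPM in the lower left and for deviations from genotype means and the mouse number trend in the upper right. The Atf5 and Trib3 cell is 0.65 below the diagonal and 0.18 above it, and Psat1 with Atf4 is the most negative cell in both, at -0.37 and -0.51.

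The genes most like the mean of the 9 standardised profiles, by Pearson's r over the 19 livers, were Actn4 (0.865), Mapre1 (0.864), Dtx4 (0.851), Tubb2a (0.851) and Thbd (0.840), which were chosen for that r. Among the 9 genes themselves, r to this mean, which includes them, ran from 0.273 for Psat1 to 0.792 for Ddit3, and it was 0.406 for Atf4.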

How the data were processed

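RNA from 19 livers (7 WT, 6 Het and 6 Homo, grouped by the genotype label) was sequenced after a NuGen Ovation mouse preparation, per the labels' protocols. The authors deposited raw counts per gene symbol, 1 column per liver, with no normalization. Per the submitters' processing notes, the tools were STAR 2.7.2b and featureCounts 1.6.4, and the build GRCm38. The sources used here do not give the annotation, the strand setting or the treatment of multi-mapping reads. In 27 of the 35976 rows a calendar date stands in place of a symbol. These rows stayed in the totals, and no result names them.

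Counts were analysed in R 4.3.3 with edgeR 4.0.16: TMM normalization, filterByExpr (16463 genes kept), 1 quasi-likelihood fit over 19 libraries with genotype as its factor, and a further fit with mouse number beside genotype. Adjusted p-values (Benjamini-Hochberg over all tested genes) under 0.05 were called. SE is the estimate over the root of its F statistic, and 95% intervals use the fit's degrees of freedom. CPM use TMM library sizes, and log2 CPM a prior count of 2. RPKM divide CPM by the merged exon length of GENCODE vM21 (GRCm38), which may differ from the annotation counted. Copies were searched with BLAST in GENCODE transcripts. Alternatives used DESeq2 1.42.0, limma-voom with quality weights for each library (limma 3.58.1, called limma-voom here), other filters and scalings, and subsets of libraries. The scripts were tested on simulated counts. The 10 genes, the lists, the tests and the naming rule were chosen with earlier results of these data known. The rule names all 10 genes, up to 3 genes per list by p, for Homo against WT and for the mouse number each, Pkd1, and the 5 genes most alike. Aars, a called gene beyond it, was named after its values were seen, and part of the genes it allows are printed. p-values measure the spread between mice. Promoters are RefSeq's (GRCm38.p6).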

Additional observations from a re-analysis of the deposited data

Results flagged for a closer look

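In 30 groups of livers (10 genes in 3 genotypes) the highest and lowest values were compared with the others by Dixon's criterion at 95%, and 2 groups were flagged. Chance flags about 1 in 20 groups. Asns in Het was at 1.77 CPM in mouse 14, with the next Het liver at 0.869 CPM. Sesn2 in Het was at 4.18 CPM in mouse 20, with the next Het liver at 2.64 CPM.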

How the results depend on the processing

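No paired analysis was possible because replicates were numbered in accession order and the groups share no mouse numbers. No member was called in a genotype comparison under any alternative run. DESeq2 called 305 genes in Homo against WT (79 with edgeR), 28 in Het against WT (4), 102 in Homo against Het (30) and 1735 for the mouse number (1054). limma-voom called 16 in Homo against Het. With mouse number as a covariate 38 were called in Homo against WT. Without mice 1 to 3 there were 25 in Homo against WT and 358 for the number. Within mice 8 to 13 (Homo 8 and 10, WT 9, 11, 12 and 13) there were 2 in Homo against WT. Within mice 14 to 20 (Homo 15 to 18, Het 14, 19 and 20) there were 0 in Homo against Het. Smaller groups alone can lower such counts, and that share of the fall was not tested. With no genotype term 1820 genes and 2 members followed the number, Trib3 added to Atf5 at -0.07 per number (adjusted p = 0.0152).

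Signs turned for uncalled estimates, and the cause was not tested. With limma-voom, Ddit3 was at 0.0207 and Chac1 at 0.126 in Homo against WT, Ddit3 at 0.00378 in Het against WT and Mthfd2 at -0.0635 in Homo against Het. With mouse number as a covariate, Ddit3 was at 0.11 and Chac1 at 0.36 in Homo against WT, Ddit3 at 0.0163, Chac1 at 0.145 and Sesn2 at -0.0413 in Het against WT, and Atf5 at 0.000695 in Homo against Het. Without mice 1 to 3, Ddit3 was at 0.49 and Chac1 at 0.62 in Homo against WT, Atf4 at 0.0291, Atf5 at 0.0334, Ddit3 at 0.45 and Chac1 at 0.56 in Het against WT, and Atf4 at 0.00343 and Ddit3 at 0.0133 per number. Within mice 8 to 13, Atf5 was at 0.18, Ddit3 at 0.47 and Chac1 at 0.19. Within mice 14 to 20, Ddit3 was at -0.0349 and Asns at -0.346.

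Leaving out each liver in turn gave 35 to 122 genes in Homo against WT, 4 to 7 in Het against WT, 9 to 34 in Homo against Het and 651 to 1070 for the number, with 0, 0, 0 and 1 members. In Homo against WT the range was -0.0213 to 0.0969 for Atf4, -0.284 to 0.0133 for Ddit3, -0.219 to 0.168 for Chac1 and -0.0867 to 0.421 for Mthfd2. In Het against WT it was -0.33 to 0.11 for Chac1, -0.13 to 0.39 for Mthfd2 and -0.14 to 0.15 for Sesn2. In Homo against Het it was -0.0479 to 0.0971 for Ddit3, -0.17 to 0.15 for Trib3, -0.10 to 0.26 for Chac1 and -0.11 to 0.20 for Mthfd2. For the number, Sesn2 ranged from -0.000586 to 0.0290 and Atf5 from -0.07 to -0.06. With no filter Phgdh was at 0.96 in Homo against WT (adjusted p = 0.618). Deviations from genotype and mouse number in the pair correlations were chosen after seeing the data. Depth limits Asns, Psat1 and Phgdh most, at means of 31.7, 24.5 and 5.79 reads per liver.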
